A study of Mus musculus with 12 samples.

Results

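Leukaemia inhibitory factor (LIF) signalling was followed through 8 genes, the ligand Lif, the receptor chains Lifr, Il6st and Osmr, the kinase Jak1, the transcription factor Stat3 and the inhibitors Socs2 and Socs3. The genes were chosen by name, for their place in the pathway, and each of the 8 matched 1 locus that held no other gene, out of 80012 loci in the count table. Poly(A) RNA had been sequenced from an Eomes EGFP reporter mouse embryonic stem cell line, labelled C57BL/6, in which EGFP sits in the endogenous Eomes locus, so that all 12 libraries carry the reporter. The 3 groups of 4 libraries were undifferentiated stem cells (ESCs), grown on mouse embryonic fibroblast feeders in medium with LIF, and the fractions of day 3 embryoid bodies without (Eo-) and with (Eo+) Eomes-driven EGFP. The embryoid bodies were grown in hanging drops, in a medium whose listed components did not include LIF, and were parted by flow sorting for EGFP. All libraries came from this 1 reporter line. The study's methods name 4 differentiation sets for the 12 libraries, without tying the replicate numbers to them.

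LIF holds mouse ESCs in self-renewal. It binds Lifr, which pairs with gp130, the shared signalling chain of the interleukin 6 family encoded by Il6st, and the paired chains activate Jak kinases that phosphorylate Stat3. Stat3 then enters the nucleus and drives genes of the naive pluripotency circuit and Socs3, which binds gp130 and Jak kinases and shuts the signal off. A Shp2 and Ras branch runs from the same receptor. In what follows, all values are of RNA and say nothing of phosphorylated Stat3.

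Levels are given as CPM, counts per 1000000 counts of the library, with library sizes scaled by the trimmed mean of M-values, or, where genes are compared with each other, as FPKM, which also divides by the exon length of the locus. Differences are log2 fold changes ± standard error from 1 limma voom fit, and a gene was called when its p, adjusted by Benjamini-Hochberg over 17922 loci, was at most 0.05. The libraries held 648413022 to 837308168 counts in loci, and 3 counts, the smallest number read as a level here, correspond to 0.00368 to 0.00485 CPM. The labels fit the markers: all 6 pluripotency markers listed were lower in Eo+ than in ESCs and in Eo-, and all 5 mesendoderm markers were higher. The sums of fibroblast and of leukocyte markers were higher in the ESC libraries than in the sorted fractions. The 12 fibroblast markers summed to 105 to 257 CPM in ESCs, 32.5 to 44.8 in Eo- and 32.0 to 48.7 in Eo+, with 6 lower and 1 higher in each fraction of the 8 that passed the FPKM minimum in more than the ESCs (Thy1 in Eo-, 0.62 ± 0.20, adjusted p = 0.0149, and Pdgfrb in Eo+, 0.70 ± 0.16, adjusted p = 0.00155), and the 5 leukocyte markers summed to 7.24 to 20.9 CPM in ESCs against 0.127 to 0.633 in Eo- and 0.172 to 0.270 in Eo+. The fibroblast gene Col1a1 lay at 33.1 to 96.5 CPM in ESCs and at 1.47 to 5.11 in the fractions, whereas Dcn was not called in Eo- nor Twist2 in Eo+. S100a4 and the leukocyte gene Mcpt8 were at 0 in at least 1 sorted library. Both of these, with Col3a1 and the leukocyte gene Lyz2, passed the FPKM minimum only through the ESCs and so had to be lower elsewhere. Without Lyz2 and Mcpt8, only 1 leukocyte marker (Tyrobp) could be tested, and it was lower in both fractions. Other marker sums reached higher in Eo+. The 5 markers of endothelial and blood precursors summed to 40.8 to 67.1 CPM in ESCs, 30.8 to 163 in Eo- and 115 to 462 in Eo+ (4 higher and 1 lower in Eo+ than in ESCs), and the 6 visceral endoderm markers to 4.28 to 8.06, 2.31 to 10.2 and 4.04 to 75.3 CPM (1 higher and 1 lower of the 3 that passed in more than Eo+). The part of any of these cells in the differences between groups was not tested. In these bulk libraries, fewer cells of a type and less RNA per cell cannot be told apart.

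All 8 genes passed the minimum of 0.1 FPKM in at least 1 group, but Osmr did so only through the ESCs and so had to be lower elsewhere, and it is left out of the counts here. Of the other 7, 5 were called in Eo- against ESCs and all 5 were lower (Lif, Lifr, Il6st, Stat3 and Socs3). In Eo+ against ESCs 6 were called, with Lifr and Jak1 higher and Lif, Il6st, Stat3 and Socs3 lower. Between the fractions, Lifr and Jak1 were higher and Lif was lower in Eo+. Calls were common among all loci tested: 62.2% in Eo- against ESCs (30.9% higher and 31.3% lower), 71.9% in Eo+ against ESCs (35.8% higher and 36.1% lower) and 47.7% in Eo+ against Eo- (23.0% higher and 24.6% lower), so that the number of calls among these genes lies near the background and it is their direction and size that are described here. The median log2 fold change of the 7 genes was -0.74, -0.41 and 0.33 in these comparisons, beside 0.02, 0.00 and -0.01 over all loci tested. The first and the second comparison share the ESC libraries. These shares of all loci are also the background for the counts given for each gene list below.

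**Figure D1:**
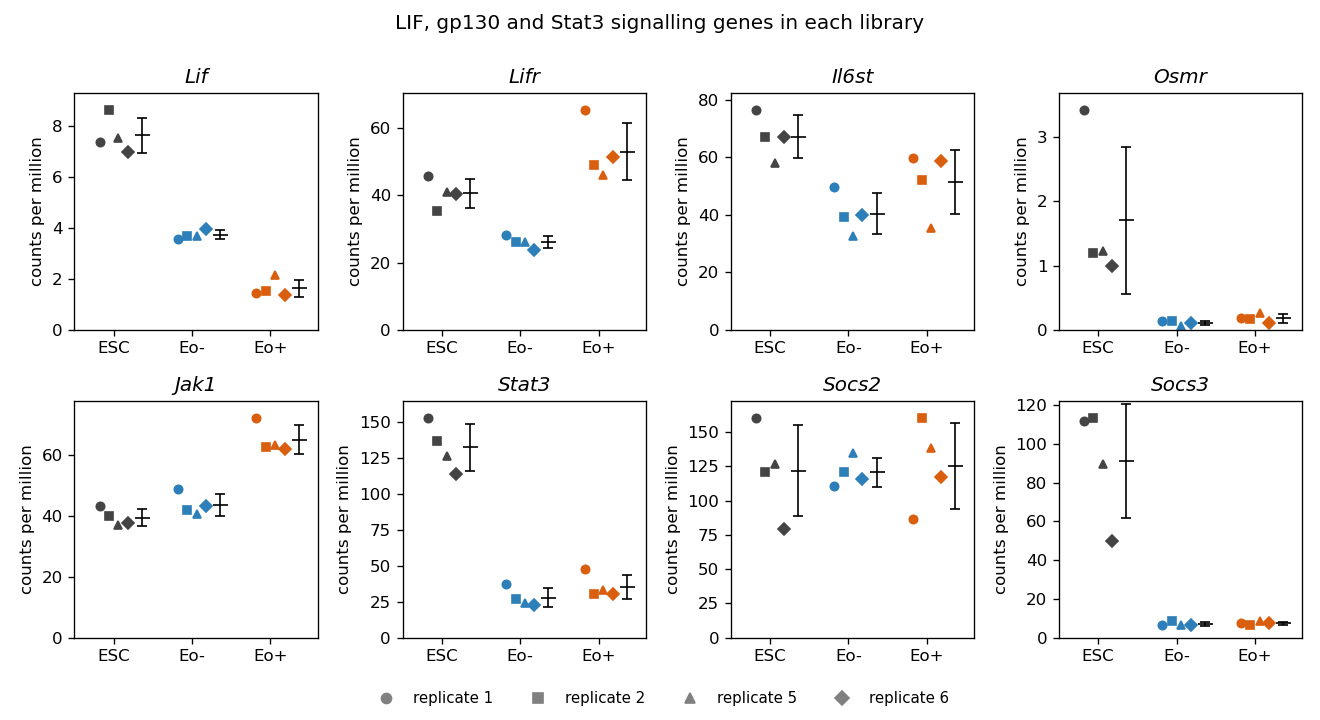
CPM of the 8 genes (linear axes from 0) in each library of ESCs, Eo- and Eo+, with symbols for the replicate numbers and a bar for the mean ± SD of 4 libraries. Lif steps down from ESCs to Eo- to Eo+ without overlap, Stat3 and Socs3 are low in both fractions, Lifr and Jak1 are highest in Eo+, and the Socs2 values overlap throughout.

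The sequences just upstream of the transcription start, as given by RefSeq on GRCm38.p6, the build of the files (mm10), are shown for Socs3, Stat3 and Lif, 3 members whose RNA fell in both fractions, with Gab1 of the Shp2 branch because it holds the only other match found. Capitals mark TTCNNNGAA, the palindrome that Stat factors bind, in which N is any base and which reads the same on both strands. Each run is 250 bases long, 5′ to 3′ on the strand of the gene, and ends at the base before the start.
Socs3, chr11:117969367-117969616, minus strand: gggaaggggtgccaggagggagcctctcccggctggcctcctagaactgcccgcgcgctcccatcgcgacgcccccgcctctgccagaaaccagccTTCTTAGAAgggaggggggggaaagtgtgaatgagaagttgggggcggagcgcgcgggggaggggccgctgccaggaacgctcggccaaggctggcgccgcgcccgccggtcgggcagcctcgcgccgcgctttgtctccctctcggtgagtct
Stat3, chr11:100939541-100939790, minus strand: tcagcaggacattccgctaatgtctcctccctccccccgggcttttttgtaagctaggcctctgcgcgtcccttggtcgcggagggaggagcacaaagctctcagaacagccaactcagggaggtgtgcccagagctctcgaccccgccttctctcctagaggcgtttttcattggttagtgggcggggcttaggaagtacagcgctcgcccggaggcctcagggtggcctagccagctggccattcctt
Lif, chr11:4257318-4257567, plus strand: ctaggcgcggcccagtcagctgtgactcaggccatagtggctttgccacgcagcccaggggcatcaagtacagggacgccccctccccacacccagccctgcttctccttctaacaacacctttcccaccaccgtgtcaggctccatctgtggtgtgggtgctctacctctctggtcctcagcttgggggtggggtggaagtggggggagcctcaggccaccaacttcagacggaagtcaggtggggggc
Gab1, chr8:80880480-80880729, minus strand: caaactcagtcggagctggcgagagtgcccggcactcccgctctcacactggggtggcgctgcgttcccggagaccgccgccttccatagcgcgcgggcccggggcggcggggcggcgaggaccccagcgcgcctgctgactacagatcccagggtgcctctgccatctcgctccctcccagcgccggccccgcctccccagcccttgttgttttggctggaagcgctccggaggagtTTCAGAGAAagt
The match in Socs3 (TTCTTAGAA, chr11:117969512-117969520) lies 154 bases before the start, and that in Gab1 (TTCAGAGAA, chr8:80880483-80880491) 12 bases before it. The motif was found in 1 of 8 windows of the members (7 of the 8 genes had an entry, Socs2 had none), and in 2306 of 32851 such windows of 250 bases over all genes, which is 7.02%. Over all pathway genes listed here it was found in 2 of 60 windows. A match describes these letters and is not a site shown to be bound.

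Lif, on chromosome 11 (plus strand, 4257557 to 4272516), encodes the secreted ligand. Its level was 7.37, 8.63, 7.56 and 7.01 CPM in ESC replicates 1, 2, 5 and 6, 3.57, 3.71, 3.70 and 3.98 in Eo-, and 1.44, 1.53, 2.14 and 1.38 in Eo+. The 3 groups did not overlap, with ESCs highest and Eo+ lowest. The log2 fold change was -1.03 ± 0.13 in Eo- against ESCs (adjusted p = 1.26e-05), -2.25 ± 0.15 in Eo+ against ESCs (adjusted p = 1.46e-08) and -1.22 ± 0.15 in Eo+ against Eo- (adjusted p = 3.27e-05). The fitted level in Eo+ was thus 4.77-fold below that in ESCs. A non-annotated antisense locus inside Lif held 10 to 67 counts a library and failed the filter on low values.

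Of the 10 ligands of the family, Lif included, 9 could be tested (Il27 could not). Without Osm and Il6, which passed the minimum of 0.1 FPKM only through the ESCs, 2 of 7 were lower and 1 higher in Eo- than in ESCs, 3 lower and 1 higher in Eo+ than in ESCs, and 3 lower and 1 higher in Eo+ than in Eo-. Osm, oncostatin M, was at 2.52 ± 0.52 CPM in ESCs (SD, n = 4), 0.152 ± 0.0721 in Eo- and 0.0140 ± 0.00466 in Eo+, where it had 6 to 14 counts a library. Il6 had 98 to 268 counts in the ESC libraries, 0 to 14 in Eo- and 0 to 15 in Eo+. These levels are given as a description, since a gene kept only through the ESCs had to be lower elsewhere. Clcf1, a ligand that acts through the Cntf receptor, was the ligand that rose from ESCs in both fractions, from 1.73 to 3.34 and 2.77 CPM (1.00 ± 0.21, adjusted p = 9.59e-04, and 0.74 ± 0.22, adjusted p = 0.00697). The highest FPKM of the list belonged to the locus of Cntf, which is joined with Zfp91, so that its rise in Eo+ over Eo- (0.28 ± 0.07, adjusted p = 0.00667) cannot be given to either gene, and the Il11 locus is likewise joined with Tmem238 (-0.64 ± 0.17 in Eo+ against Eo-, adjusted p = 0.00728).

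Lifr, the LIF-binding chain (chromosome 15, plus strand, 7129470 to 7197494), moved in opposite directions in the fractions. It lay at 45.6, 35.3, 41.0 and 40.5 CPM in ESC replicates 1, 2, 5 and 6, at 28.2, 26.1, 26.0 and 23.8 in Eo-, and at 65.3, 49.1, 46.0 and 51.6 in Eo+. All Eo- libraries were below and all Eo+ libraries above every ESC library. Lifr fell in Eo- (-0.64 ± 0.12, adjusted p = 3.30e-04) and rose in Eo+ (0.38 ± 0.11, adjusted p = 0.00659), and Eo+ exceeded Eo- 2.02-fold (1.02 ± 0.11, adjusted p = 1.27e-05). While RNA for the ligand was lowest in Eo+, RNA for its receptor was highest there: the FPKM ratio of Lifr to Lif within a library was 1.82 to 2.76 in ESCs, 2.66 to 3.52 in Eo- and 9.56 to 20.2 in Eo+.

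Il6st, the gp130 chain shared by the family (chromosome 13, plus strand, 112464070 to 112512536), lay at 76.4, 67.0, 58.1 and 67.0 CPM in ESCs, 49.8, 39.3, 32.7 and 39.9 in Eo-, and 59.8, 52.1, 35.4 and 58.6 in Eo+, in the same replicate order. Replicate 1 was the highest and replicate 5 the lowest in each group. ESCs and Eo- did not overlap, whereas Eo+ overlapped both. Il6st was lower in Eo- than in ESCs (-0.74 ± 0.16, adjusted p = 0.00123). Its fall in Eo+ against ESCs was smaller (-0.41 ± 0.16, adjusted p = 0.0321), and that call was lost without ESC replicate 1, 2 or 6 (adjusted p = 0.0920, 0.0591 and 0.0534) or Eo+ replicate 5 (adjusted p = 0.116). Eo+ against Eo- gave 0.33 ± 0.16 (95% interval -0.02 to 0.68, adjusted p = 0.112).

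Because the sorted fractions with the same replicate number deviated from their group means together, they were also fitted as pairs. With the replicate block in a fit of all 12 libraries, Il6st was higher in Eo+ than in Eo- (log2 fold change 0.34, adjusted p = 0.00453), as was Stat3 (0.35, adjusted p = 0.00522). This took the members called between the fractions from 3 to 5, with 53.3% of all loci called in the blocked fit. In all 4 pairs the Eo+ library was above its Eo- partner for both genes.

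The balance of the receptor chains differed between the groups. Within a library, the FPKM ratio of Il6st to Lifr was 1.09 to 1.46 in ESCs, 0.97 to 1.36 in Eo- and 0.59 to 0.88 in Eo+, and it was below that of every ESC and Eo- library in all 4 Eo+ libraries. With the length of the longest transcript in place of the exon length, the ratio was 1.26 to 1.69, 1.12 to 1.57 and 0.69 to 1.01, so that with this length 1 of the Eo+ libraries lay at about 1 and the others still below it. A non-annotated antisense locus that overlaps the first bases of Il6st held 5 to 58 counts a library and failed the filter.

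Osmr (chromosome 15, minus strand, 6813577 to 6874969) encodes the oncostatin M receptor chain, which also pairs with gp130. It lay at 3.42, 1.20, 1.23 and 0.991 CPM in ESC replicates 1, 2, 5 and 6, at 0.131, 0.133, 0.0629 and 0.108 in Eo-, and at 0.177, 0.161, 0.263 and 0.107 in Eo+. ESC replicate 1 stood far above the other ESC libraries, and no library of either fraction reached the ESC range. The log2 fold change was -3.84 ± 0.49 in Eo- (adjusted p = 1.68e-05) and -3.15 ± 0.46 in Eo+ (adjusted p = 2.73e-05), and 0.68 ± 0.59 between the fractions (95% interval -0.58 to 1.95, adjusted p = 0.357). With a mean of 0.138 FPKM in ESCs, Osmr passed the minimum of 0.1 FPKM only through that group, so that its p-values are no support for a fall, and it failed the minimum without ESC replicate 1. Kept regardless and fitted without that library, the changes were -3.42 and -2.74, given as a description. ESC replicate 1 was also the library with the highest fibroblast and leukocyte marker sums (257 and 20.9 CPM), and the part of those cells in the level of Osmr was not tested.

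**Figure D2:**
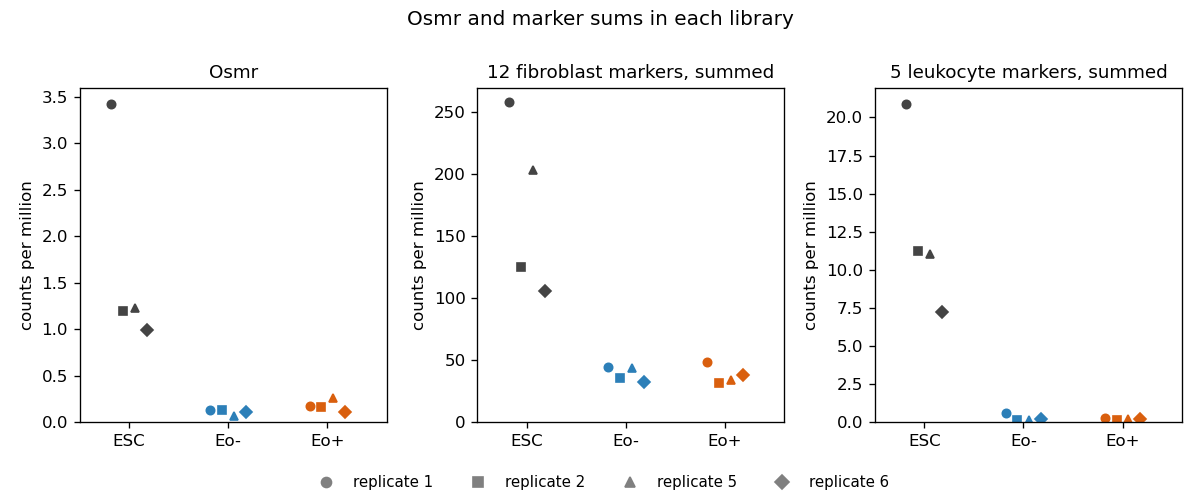
CPM of Osmr (left), of 12 fibroblast markers summed (middle) and of 5 leukocyte markers summed (right) in each library (linear axes from 0), with symbols for the replicate numbers. ESC replicate 1 is the highest in all 3 panels, with 3.42 CPM of Osmr, and all Eo- and Eo+ libraries lie below all ESC libraries.

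Among the 6 other receptor chains of the family, Lifr and Il6st included, 3 were lower and none higher in Eo- than in ESCs, 2 were lower and 1 (Lifr) higher in Eo+ than in ESCs, and Lifr was the 1 called between the fractions, where it was higher in Eo+. Il6ra, the binding chain for interleukin 6, fell from 2.07 ± 0.522 CPM in ESCs to 0.785 ± 0.267 in Eo- (-1.43 ± 0.26, adjusted p = 3.11e-04) and 0.555 ± 0.0461 in Eo+ (-1.87 ± 0.27, adjusted p = 3.00e-05). Cntfr, which binds Cntf and Clcf1, had means of 16.0, 16.7 and 11.6 CPM and was called only with the replicate block, as lower in Eo+ than in ESCs (-0.50, adjusted p = 0.0243) and than in Eo- (-0.56, adjusted p = 0.0202). The Il11ra1 locus, joined with Galt, was at 28.2, 30.3 and 26.9 CPM.

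Jak1, the kinase most tied to gp130 (chromosome 4, minus strand, 101152367 to 101265465), was higher in Eo+ than in both other groups. It was at 43.4, 40.0, 37.2 and 37.6 CPM in ESC replicates 1, 2, 5 and 6, at 49.0, 42.1, 40.6 and 43.2 in Eo-, and at 72.3, 62.9, 63.3 and 62.1 in Eo+. The Eo+ libraries did not overlap the others, while ESCs and Eo- overlapped. The log2 fold change was 0.72 ± 0.08 in Eo+ against ESCs (adjusted p = 2.37e-06) and 0.58 ± 0.08 in Eo+ against Eo- (adjusted p = 6.22e-05), and 0.14 ± 0.08 in Eo- against ESCs (95% interval -0.03 to 0.32, adjusted p = 0.147). With the replicate number as a block, Jak1 was called in Eo- against ESCs as well (0.14, adjusted p = 0.0307), as were 66.1% of all loci, and it was higher in Eo- than in the ESC library of the same number in all 4 cases. Deviations of same-numbered ESC and Eo- libraries correlated at only -0.0847 to 0.201, so that pairing them has less ground than pairing the fractions (0.136 to 0.398).

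The 4 Jak kinases changed in different directions. Jak2 rose with Jak1, from 9.48 ± 1.79 CPM in ESCs to 21.8 ± 2.46 in Eo+ (1.21 ± 0.15, adjusted p = 4.84e-06), with 11.5 ± 2.09 in Eo-. Tyk2 fell in both fractions (-0.52 ± 0.10, adjusted p = 5.89e-04, and -0.54 ± 0.10, adjusted p = 3.39e-04). The Jak3 locus, joined with Insl3, fell from 28.4 to 7.74 CPM in Eo- (-1.89 ± 0.15, adjusted p = 2.42e-07) and 6.14 in Eo+ (-2.21 ± 0.16, adjusted p = 3.55e-08). In counts, none rose and 2 fell in Eo- against ESCs, 2 rose and 2 fell in Eo+ against ESCs, and 2 rose in Eo+ against Eo-, where the replicate block also called the Jak3 locus lower (-0.33, adjusted p = 0.0437).

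Stat3 (chromosome 11, minus strand, 100885098 to 100939540), the transcription factor through which LIF sustains ESCs, fell in both fractions. Its level was 153, 137, 127 and 114 CPM in ESC replicates 1, 2, 5 and 6, 37.6, 26.7, 23.9 and 22.8 in Eo-, and 47.9, 30.5, 32.9 and 30.4 in Eo+. Every ESC library lay far above the highest sorted library, and replicate 1 was the highest in each group. The fall was 4.83-fold in Eo- (-2.27 ± 0.16, adjusted p = 1.17e-07) and 3.78-fold in Eo+ (-1.92 ± 0.16, adjusted p = 1.42e-07). Eo+ against Eo- gave 0.35 ± 0.18 without pairing (95% interval -0.03 to 0.74, adjusted p = 0.12), beside the blocked call above. Per length, Stat3 RNA exceeded Jak1 RNA 2.29 to 2.67 times in the ESC libraries and stood at 0.40 to 0.58 of it in Eo- and 0.37 to 0.50 in Eo+.

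**Figure D3:**
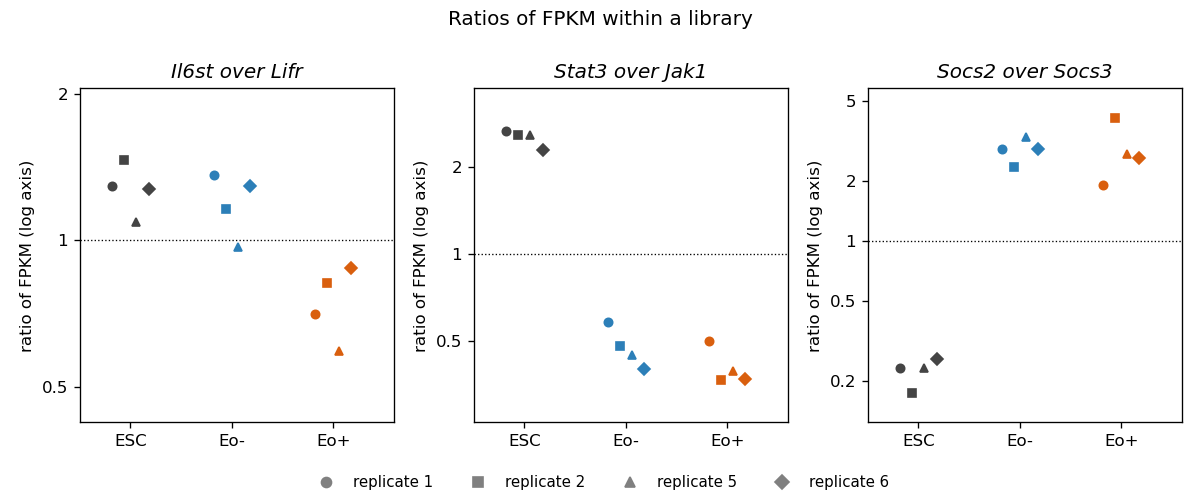
Ratios of FPKM within each library (log axes) for Il6st over Lifr, Stat3 over Jak1 and Socs2 over Socs3, with symbols for the replicate numbers and a dotted line at a ratio of 1. Il6st over Lifr lies below 1 in all 4 Eo+ libraries, and the other ratios cross 1 between the ESC libraries and both fractions. Where a ratio stands against 1 depends on the exon lengths, and by mean CPM Socs2 lay above Socs3 in ESCs too.

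Several other Stat genes rose. Stat5b rose from 7.03 ± 1.11 CPM in ESCs to 20.9 ± 5.30 in Eo- (1.57 ± 0.25, adjusted p = 8.95e-05) and 28.9 ± 9.0 in Eo+ (2.02 ± 0.24, adjusted p = 4.16e-06), and Stat5a rose in both fractions from 3.78 to 6.84 and 6.90 CPM (0.79 ± 0.30, adjusted p = 0.0354, and 0.82 ± 0.30, adjusted p = 0.0267). Stat2, which acts in interferon signalling, also rose in both (0.74 ± 0.09 and 0.50 ± 0.09, adjusted p = 6.86e-06 and 1.58e-04). Stat6 had means of 29.4, 33.7 and 40.1 CPM in ESCs, Eo- and Eo+ and rose in Eo+ against ESCs (0.49 ± 0.12, adjusted p = 0.00257). Over the 6 Stat loci, 3 were higher and 2 lower in Eo-, and 4 higher and 2 lower in Eo+, each against ESCs, and 1 (Stat2) was lower and none higher in Eo+ than in Eo-. With the replicate block, 2 were higher in Eo+ than in Eo-, Stat3 as above and Stat5b (0.45, adjusted p = 0.025).

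The feedback inhibitors Socs2 and Socs3 parted. Both encode SH2 proteins that cytokines induce, Socs3 acting on gp130 and Jak kinases and Socs2 best known for limiting growth hormone signalling. Socs3 (chromosome 11, minus strand, 117966079 to 117970118) lay at 112, 113, 89.5 and 50.1 CPM in ESC replicates 1, 2, 5 and 6, at 6.32, 8.49, 6.70 and 6.57 in Eo-, and at 7.41, 6.36, 8.29 and 7.36 in Eo+. ESC replicate 6 was the lowest of its group and still far above every sorted library, while the fractions overlapped. The fall was 12.5-fold in Eo- (-3.65 ± 0.29, adjusted p = 2.37e-07) and 11.9-fold in Eo+ (-3.58 ± 0.29, adjusted p = 1.07e-07), and the fractions differed by 0.07 ± 0.36 (95% interval -0.70 to 0.84, adjusted p = 0.888). The changes from ESCs stayed between -3.91 and -3.45 whichever library was left out.

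Socs2 (chromosome 10, minus strand, 95379872 to 95417180) was at 160, 121, 127 and 79.1 CPM in ESC replicates 1, 2, 5 and 6, at 111, 121, 135 and 115 in Eo-, and at 86.6, 160, 138 and 117 in Eo+. All groups overlapped. The log2 fold changes were 0.02 ± 0.20 (95% interval -0.41 to 0.45, adjusted p = 0.936) in Eo- against ESCs, 0.05 ± 0.20 (-0.38 to 0.48, adjusted p = 0.848) in Eo+ against ESCs and 0.03 ± 0.20 (-0.40 to 0.45, adjusted p = 0.927) in Eo+ against Eo-. No change was detectable, and its sign turned under other settings, but the intervals leave room for changes from -0.41 to 0.48 on the log2 scale. Per length, Socs2 stood at 0.17 to 0.26 of Socs3 in ESCs, and at 2.33 to 3.29 and 1.91 to 4.11 times Socs3 in Eo- and Eo+. These ratios rest on an exon length of 18160 bases for Socs2, merged from 17 transcripts, against 2962 for Socs3. In CPM, Socs2 had a mean of 122 and Socs3 of 91.2 in ESCs, so that Socs2 was below Socs3 there only per length.

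**Figure D4:**
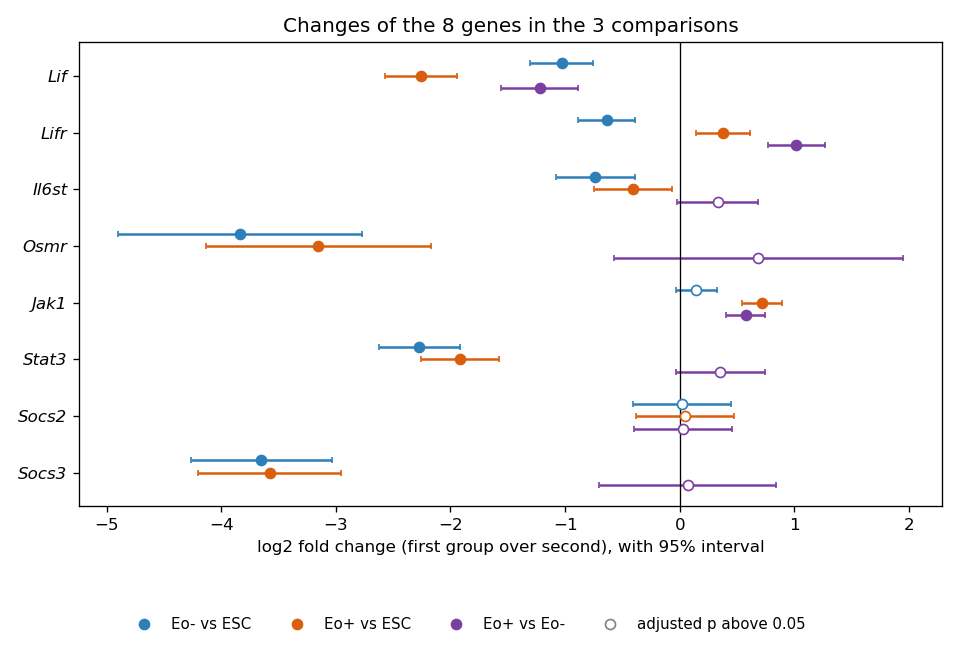
Log2 fold changes of the 8 genes in the 3 comparisons with 95% intervals from the limma voom fit, with open points where the adjusted p was above 0.05. Stat3, Socs3 and Osmr lie at -1.92 or lower in both fractions against ESCs, Lifr lies on either side of 0, and the Socs2 points lie at 0 with intervals within 0.5 of it.

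Of the 15 inhibitors listed, 2 were higher and 4 lower in Eo- than in ESCs, 5 higher and 4 lower in Eo+ than in ESCs, and 5 higher and 2 lower in Eo+ than in Eo-. Socs3 was the only Socs gene that fell in Eo- by more than 1 on the log2 scale. Socs6 rose in both fractions (0.31 ± 0.07, adjusted p = 0.00223, and 0.68 ± 0.07, adjusted p = 1.34e-06), and Socs5 in Eo+ (0.82 ± 0.16, adjusted p = 4.91e-04) and, with the replicate block, in Eo- (0.38, adjusted p = 0.0275). Pias2, one of the proteins inhibitors of activated Stat, fell from 195 ± 14.0 CPM to 107 ± 8.47 in Eo- (-0.87 ± 0.07, adjusted p = 4.11e-07) and 89.2 ± 5.37 in Eo+ (-1.13 ± 0.07, adjusted p = 1.66e-08). Of the phosphatases, Ptpn1 rose in Eo+ (0.30 ± 0.11, adjusted p = 0.0273), Ptpn2 was at 71.7, 66.6 and 71.9 CPM and not called, and Ptpn6, named after its values were seen, rose in Eo- against ESCs (0.37 ± 0.10, adjusted p = 0.00685) and was lower in Eo+ than in Eo- (-0.33 ± 0.10, adjusted p = 0.0187).

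In the Shp2 and Ras branch, with 9 genes, 2 were higher and 5 lower in Eo- than in ESCs, 3 higher and 5 lower in Eo+ than in ESCs, and 4 higher and 1 lower in Eo+ than in Eo-. The replicate block also called Gab2 higher than in ESCs, in Eo- (0.63, adjusted p = 0.0319) and in Eo+ (0.55, adjusted p = 0.0493). Gab1, the docking protein that brings Shp2 to the receptor complex, fell in steps from 245 ± 27.5 CPM in ESCs to 94.8 ± 3.71 in Eo- (-1.36 ± 0.09, adjusted p = 5.30e-08) and 32.9 ± 4.26 in Eo+ (-2.89 ± 0.10, adjusted p = 1.11e-10). Ptpn11, which encodes Shp2, rose from 85.4 ± 6.90 to 113 ± 6.39 and 142 ± 10.7 CPM (0.40 ± 0.08 and 0.73 ± 0.08, adjusted p = 4.22e-04 and 1.13e-06). The adaptor Grb2 was slightly lower in both fractions than in ESCs (-0.32 ± 0.05 and -0.15 ± 0.05, adjusted p = 9.01e-05 and 0.0137). Of the genes that the Erk cascade induces, Dusp6 rose in Eo+ against ESCs (0.64 ± 0.18, adjusted p = 0.00574), whereas Spry4 (-1.45 ± 0.16 and -0.99 ± 0.16, adjusted p = 4.45e-06 and 6.23e-05) and Spry2 (-0.49 ± 0.12 and -0.60 ± 0.13, adjusted p = 0.00344 and 6.49e-04) fell in both fractions.

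The list of 10 Stat3 targets holds Socs3 and 9 further genes. In Eo- against ESCs, 9 were lower and none higher (median -3.35 on the log2 scale), and in Eo+ 9 were lower and Myc was higher (median -3.41). Between the fractions the median was -0.21, with 2 higher (Myc and Junb) and 3 lower (Tfcp2l1, Pim1 and Pim3) in Eo+, to which the replicate block added Bcl3 (-0.80, adjusted p = 0.00639). Several of these genes are themselves part of the naive pluripotency circuit and are under the control of other factors too.

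**Figure D5:**
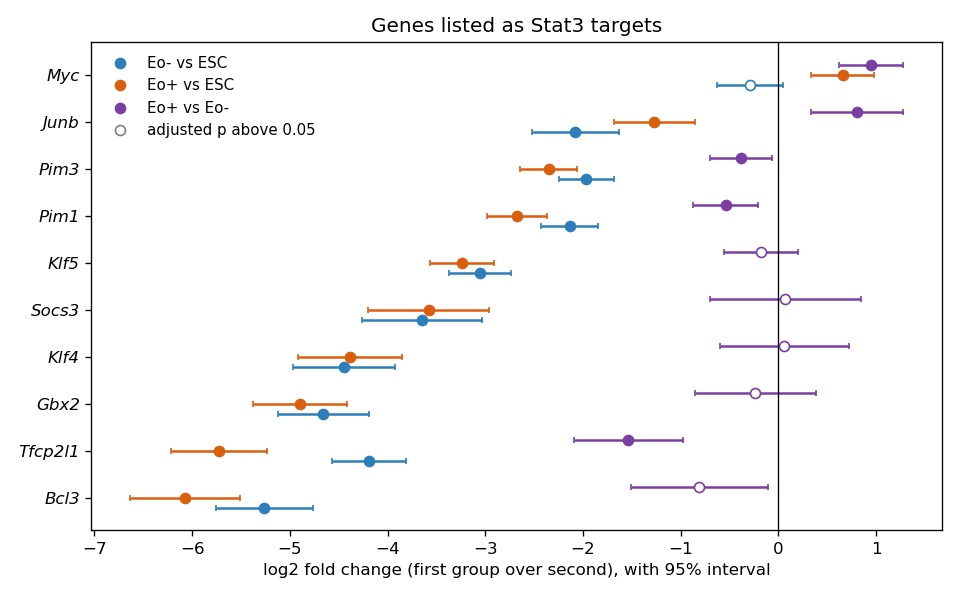
Log2 fold changes of the 10 genes listed as Stat3 targets in the 3 comparisons, with 95% intervals from the limma voom fit and open points where the adjusted p was above 0.05. All but Myc were lower in both fractions than in ESCs, and Myc and Junb lie to the right of 0 in Eo+ against Eo-.

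Bcl3, a co-factor of NF-kappa B proteins, fell furthest in Eo+, from 33.7 ± 5.48 CPM in ESCs to 0.516 ± 0.182 (-6.07 ± 0.26, adjusted p = 5.82e-10), with 0.887 ± 0.201 in Eo-. Tfcp2l1, a transcription factor of the naive circuit whose locus here is joined with Gm23497, fell from 245 ± 33.2 to 13.7 ± 3.80 in Eo- (-4.19 ± 0.18, adjusted p = 2.42e-09) and 4.77 ± 1.43 in Eo+ (-5.73 ± 0.23, adjusted p = 2.95e-10). The kinase genes Pim1 (-2.14 ± 0.13 and -2.68 ± 0.14, adjusted p = 3.73e-08 and 3.06e-09) and Pim3 (-1.97 ± 0.13 and -2.35 ± 0.14, adjusted p = 5.78e-08 and 5.92e-09) fell in both fractions. Junb, an AP-1 subunit, fell less in Eo+ than in Eo- (-1.27 ± 0.19 and -2.08 ± 0.21 against ESCs), with Eo+ above Eo- by 0.81 ± 0.22 (adjusted p = 0.00803). Myc was at 47.8 to 66.5 CPM in ESCs, 41.4 to 50.7 in Eo- and 65.7 to 109 in Eo+, and was higher in Eo+ than in ESCs (0.66 ± 0.15, adjusted p = 0.00134) and than in Eo- (0.95 ± 0.15, adjusted p = 2.10e-04).

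Of the 59 pathway loci that could be tested, members and targets included, Osmr, Osm and Il6 passed only through the ESCs. Of the other 56, 8 were higher and 26 lower in Eo- than in ESCs, 17 higher and 26 lower in Eo+ than in ESCs, and 15 higher and 10 lower in Eo+ than in Eo-. Without the members these counts were 8 and 21, 15 and 22, and 13 and 9 of 49. The medians over the 56 were -0.28, -0.16 and 0.02.

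Compared per length, Socs3 led in ESCs with a mean of 30.8 ± 9.96 FPKM (SD, n = 4), followed by Stat3 (13.8 ± 1.72) and Socs2 (6.71 ± 1.83), with Jak1, Il6st and Lifr at 5.45, 4.95 and 3.89, Lif at 1.64 and Osmr at 0.138. This order rests on the exon lengths: by mean CPM, Stat3 (132.5) and Socs2 (121.8) lay above Socs3 (91.2) in ESCs. In Eo+ the order opened with Jak1 (8.97 ± 0.658), Socs2 (6.91 ± 1.73) and Lifr (5.07 ± 0.817), ahead of Il6st (3.80 ± 0.830), Stat3 (3.70 ± 0.878), Socs3 (2.48 ± 0.267), Lif (0.349) and Osmr (0.0143). In Eo- it was Socs2 (6.65 ± 0.578), Jak1 (6.02 ± 0.509), Il6st (2.98 ± 0.521), Stat3 (2.90 ± 0.706), Lifr (2.49 ± 0.174), Socs3 (2.37 ± 0.336), Lif (0.803) and Osmr (0.00882). The steps from Socs2 to Il6st in ESCs, between Socs2 and Jak1 and from Il6st to Socs3 in Eo-, and from Jak1 to Stat3 in Eo+ were within the sum of the neighbours' SDs.

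For each member, the genes with the most similar pattern were found by the root mean square difference of log2 CPM, centred on each gene's mean, over the 12 libraries among 12429 loci with at least 1 CPM. They were Gsta4, Pmm1 and Tmem79 for Lif (0.15 to 0.16), Osbpl8, B3galnt1 and Stambpl1 for Lifr (0.12 to 0.13), Ece1, Plekho2 and Zfp568 for Il6st (0.13 to 0.17), and Erlin2, Calu and Ptprk for Jak1 (0.04 to 0.07). For Stat3 they were Mfsd7c, Atp2b4 and Emp3 (0.17 to 0.22), for Socs2 Rab11b, Ing1 and Ttl (0.21 to 0.21), for Socs3 Icam1, Slc52a3 and Cd80 (0.28 to 0.37), and for Osmr Ly6a and Socs3 (0.48 and 0.54). The loci of B3galnt1 and Atp2b4 also hold Gm8565 and Mir6903.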

How the data were processed

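Poly(A)-selected, strand-specific libraries had been sequenced as 2 x 100 base pairs from 12 samples, 4 in each group. The deposited counts are raw reads per locus, made by the authors with STAR, Cufflinks 2.2.1 and HTSeq 0.6.1 (union mode) on mm10 (GRCm38) and a merged assembly of known and non-annotated loci. Reads that were not unique (22.4 to 26.2% of the total) stayed out of locus counts. Whether mates were counted singly is not given in the sources used here. The authors' CPM values, also deposited, were not used, and their assembly gave locus positions and lengths.

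Counts were scaled by the trimmed mean of M-values and fitted with limma 3.58.1 (voom) with 1 mean per group, two-sided, under R 4.3.3 (edgeR 4.0.16). FPKM is the CPM divided by the exon length in kilobases. Tested were 17922 loci (protein-coding genes, annotated and non-annotated lncRNAs) with a mean above 0.1 FPKM in at least 1 group, and all 8 members passed. GENCODE M21 gave the classes. Alternatives were edgeR's quasi-likelihood test, DESeq2 1.42.0, other scalings and filters, a replicate block and leaving out each library.

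Replicate numbers come from the labels. Same-numbered Eo+ and Eo- libraries deviated together (correlations 0.398, 0.176, 0.169 and 0.136 over loci), while those of ESCs and a fraction gave -0.0847 to 0.201. The study's methods name 4 differentiation sets for the 12 samples, without tying the numbers to them. No library was a copy of another (highest Spearman correlation 0.998). The members and lists were chosen with earlier results of these data known. Named are all 8 members and, per pathway list, the 3 genes with the highest mean FPKM and the 2 largest rises and falls among genes called in Eo+ against ESCs or Eo-. Protein sequences were not used here, and a few genes that these rules name are not reported here.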

Additional observations from a re-analysis of the deposited data

Results flagged for a closer look

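In groups of 4 libraries, a library was picked out when its gap to the nearest other, as a share of the group's range, exceeded Dixon's 95% critical value. Chance picks out about 1 in 20 groups, and 3 of 24 were. Osmr in ESC replicate 1 was at 3.42 CPM, with the other ESC libraries at 0.991 to 1.23. Jak1 in Eo+ replicate 1 was at 72.3 CPM, with the others at 62.1 to 63.3. Stat3 in Eo+ replicate 1 was at 47.9 CPM, with the others at 30.4 to 32.9. Lifr changed from ESCs in opposite directions in the fractions, with Eo+ against Eo- at 1.02 on the log2 scale (limma voom, adjusted p = 1.27e-05) and the Eo+ library higher in 4 of 4 pairs. A call in all 3 comparisons was part of the rule that picked Lifr out, so that this p-value is no separate support.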

How the results depend on the processing

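Over the settings tried, up to 22 for each value, the log2 fold changes of Lif, Lifr, Stat3 and Socs3 against ESCs and of Jak1 in Eo+ against ESCs kept their direction and their call wherever a value was given, except that Lifr and Jak1 lost their calls where a 2-fold change was also required. Osmr, whose direction the filter fixed, had no value without ESC replicate 1 or when 1 CPM was required in 4 libraries or more, since it then failed the filter. The counts here include Osmr, Osm and Il6. With a 2-fold change also required, the members called in Eo+ against ESCs were 4, and the pathway genes called were 20, 22 and 6 in Eo- against ESCs, Eo+ against ESCs and Eo+ against Eo-. The share of all loci under this rule was not counted, so that these numbers cannot be read against a background. With no filter on low values, 17 pathway genes were called in Eo+ against Eo- (21.1% of all loci), and the cause was not tested. Members called in Eo+ against Eo- were 5 with the replicate block, 5 also with only the fractions in the blocked fit (chosen after seeing the data, as was the fit of Osmr without ESC replicate 1), and 3 to 5 with 1 library left out. Of 59 pathway genes, 32 were called there with the block (53.3% of all loci were), 34 with only the fractions in the blocked fit (58.0% of all loci) and 19 to 27 with 1 library left out (41.7 to 49.3% of all loci). The 5 came without Eo- replicate 1, where Il6st (0.45, adjusted p = 0.0425) and Stat3 (0.52, adjusted p = 0.0207) were called, and Il6st was also called without Eo+ replicate 5 (0.51, adjusted p = 0.00618). The members called ranged from 5 to 6 in Eo- and 5 to 7 in Eo+ against ESCs with 1 library left out, where 57.3 to 63.2% and 69.0 to 71.9% of all loci were called. The replicate block called Jak1 in Eo- against ESCs (0.14, adjusted p = 0.0307) and, beyond this and Il6st and Stat3 between the fractions, changed no call of a member. Socs2, called nowhere, changed sign in Eo- against ESCs with edgeR (-0.0132), DESeq2 (-0.0641), RLE size factors (-0.0305), no filter (-0.00573), 1 CPM (-0.0218) and all loci past the FPKM minimum (-0.0563), in Eo+ against ESCs with DESeq2 (-0.00220), RLE size factors (-0.000529), no filter (-0.0240) and 1 CPM (-0.0150), and in Eo+ against Eo- with library totals (-0.00394) and no filter (-0.0183). With 1 library left out, its change lay at -0.17 to 0.17 in the first, -0.15 to 0.22 in the second and -0.10 to 0.20 in the last of these comparisons. FPKM values depend on the length used: with the longest transcript, Osmr in ESCs was 0.310. Depth is least for Osmr in the fractions, with 45 to 180 counts a library.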
